A study of Solea senegalensis with 30 samples.

Results

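Circulating microRNAs were compared between kisspeptin-treated and control males of Senegalese sole (Solea senegalensis) at 4 d post-treatment, in 10 of the 30 plasma libraries of the series. The 10 were taken by their labels for sex, day and treatment, without use of any measured value. They were 5 kisspeptin-treated males (A4-3, A4-8, A4-9, A4-10 and A4-17), given 1 intramuscular dose of 250 µg/kg of the KISS2 decapeptide, and 5 control males (A3-2, A3-5, A3-6, A3-9 and A3-11), given phosphate buffered saline. All were adult captive-bred breeders of the first generation (G1), the labels give no genotype, and the other 20 libraries were from females and males at 2 d. Each treatment used 1 tank for the 4 d sampling and another for 2 d, so treatment and tank cannot be told apart, and neither can day and tank. Sequencing took 2 runs, which the labels do not assign to fish.

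Kisspeptin is a neuropeptide of the reproductive axis with a role in the release of Fsh and Lh by the pituitary. Neurons that make gonadotropin-releasing hormone carry this action in mammals, while fish seem to use other routes. MicroRNAs are short RNAs that pair with messenger RNAs mainly through the seed, the bases near their 5′ end, and lower their translation or stability. In plasma they come from blood cells, vessel walls, liver, muscle and other tissues, carried in vesicles or bound to proteins, so that a plasma level does not show which tissue released it. Fewer releasing cells and less RNA released per cell cannot be told apart in such samples.

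Each distinct read sequence, an isomiR, was counted under a miRNA name. The isomiRs on which the results turn are printed 5′ to 3′ as counted, with T for U and the seed (bases 2 to 8) in capitals. The first 4 are the most abundant forms of the highest names, next come 3 forms of miR-202-5p, 3 of miR-1a-3p, 1 of miR-206-3p and 2 of miR-223-3p. The forms of these last 4 names are shown because the results on single forms turn on them.
miR-21: tAGCTTATcagactggtgttgg
miR-22a: aAGCTGCCagctgaagaactgt
miR-451: aAACCGTTaccattactgagt
miR-16b: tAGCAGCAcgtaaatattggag
miR-202-5p, most abundant: tTCCTATGcatatacctcttt
miR-202-5p, 1 more base at the 5′ end: tTTCCTATgcatatacctcttt
miR-202-5p, 1 base shorter at the 3′ end: tTCCTATGcatatacctctt
miR-1a-3p, full length: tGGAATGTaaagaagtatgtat
miR-1a-3p, without the last base: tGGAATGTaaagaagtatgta
miR-1a-3p, later start: gAATGTAAagaagtatgtat
miR-206-3p: tGGAATGTaaggaagtgtgtgg
miR-223-3p, longer: tGTCAGTTtgtcaaataccccaa
miR-223-3p, later start: gTCAGTTTgtcaaataccccaa
The full-length form of miR-1a-3p and the form of miR-206-3p share 1 seed, and an isomiR that starts later has another seed than its full-length form.

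The libraries held from 31354 to 139680 counts, with a median of 85875 in kisspeptin-treated and 93047 in control males. A name listed at 0 may still have had up to 3 counts, or 21.5 cpm (counts scaled to library size) in the largest library and 95.7 cpm in the smallest. Such limits concern counting error alone, because PCR copies reads and they are no longer independent. Of 172 names in the counts, 147 were counted in at least 1 of the 10 fish and 37 in all 10. Counts of 21 and 22 nt made up 78.3% ± 4.01 of a library in kisspeptin-treated males and 79.5% ± 4.94 in controls (SD, n = 5 each). None of 6 library descriptors (total, names, isomiRs, share of 21 and 22 nt, mean length, share of the 10 highest names) differed beyond the spread among fish (exact permutation tests, two-sided, p from 0.27 to 0.825, all 0.825 after Benjamini-Hochberg adjustment, where 5 fish against 5 allow no p under 0.00794). The kisspeptin-treated male A4-9 stood apart, with 55.7% of its counts in the 10 highest names, where the other 9 fish had from 63.9% to 86.0%. Without it, the 10 highest names held 12.1 percentage points more of the counts in kisspeptin-treated than in control males (unadjusted exact permutation p = 0.0238). A4-9 was singled out after its value was seen, so this p is no support. The most abundant isomiRs of miR-21 and miR-451 were listed at 0 in A4-9, and their part in this was not tested.

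Among the deposited names, the 10 highest held 72.4% of the counts, and none of them differed between treatments beyond the spread between fish. Highest, shares and cpm refer to these names alone, which cover only part of the alphabetical order. The miRNA that the paper reports as highest expressed lies outside that part. On the log2 cpm scale, miR-21, a widely expressed miRNA, averaged 17.35 ± 1.33 in kisspeptin-treated and 17.26 ± 0.93 in control males (SD, n = 5 each, as for all means that follow). By fish, miR-21 had 35826, 11148, 4443, 10900 and 19999 counts in kisspeptin-treated males, against 8398, 16917, 16030, 29417 and 1953 counts in controls. The low fish were A4-9 and A3-11, one of each treatment, and the other 8 lay close together. Levels of miR-22a were 16.93 ± 0.40 and 17.19 ± 0.43 in kisspeptin-treated and control males, and those of miR-16b, of the miR-15 and miR-16 family, were 16.47 ± 0.20 and 16.52 ± 0.32. Their log2 fold changes (kisspeptin over control) were −0.15 (standard error 0.30) for miR-22a and 0.07 (0.26) for miR-16b, the most precise of the named miRNAs. Among the miRNAs linked to erythrocytes, miR-451 averaged 16.70 ± 0.96 with kisspeptin and 16.76 ± 0.79 in controls, and miR-144-5p, from the same precursor cluster in vertebrates, 14.20 ± 0.63 and 14.51 ± 0.51. The immune regulator miR-146a had 15.85 ± 0.71 with kisspeptin and 15.62 ± 0.41 in controls, and miR-126a-3p, made in endothelium, 15.44 ± 0.44 and 15.50 ± 0.47. For miR-125a the values were 14.72 ± 0.45 and 14.23 ± 0.73, for miR-15a 14.13 ± 0.19 and 14.03 ± 0.45, and for the short reads listed as miR-3963 they were 14.17 ± 1.19 and 14.34 ± 0.84. In all 10 names the groups overlapped.

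**Figure D1:**
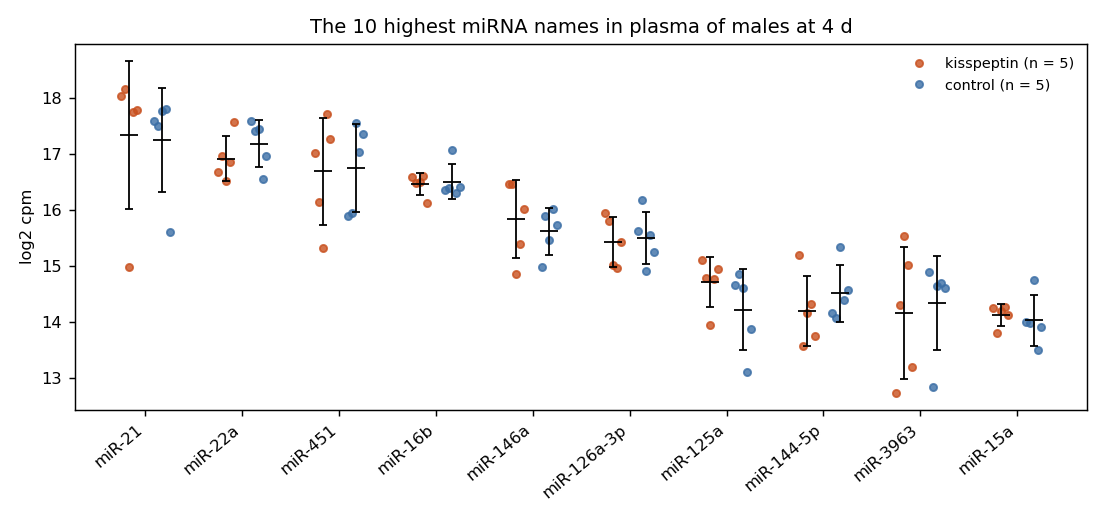
Level in log2 cpm (y axis) of the 10 highest miRNA names (x axis) in 5 kisspeptin-treated (left of each pair) and 5 control males at 4 d, 1 point per fish, with the mean and SD. Highest and cpm refer to the deposited names alone. The groups overlap in every name, and 1 fish of each treatment lies far below the others in miR-21.

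Treatment was then tested for every name and every isomiR with the quasi-likelihood test of edgeR. No name of 107 tested had a Benjamini-Hochberg adjusted p under 0.05, so that 0% were called, and 2 had an unadjusted p under 0.05. The corresponding counts of unadjusted p values were 7 with limma-voom and 8 with DESeq2, both without a call. Log2 fold changes were above 0 for 54 names and below 0 for 53, with a median of 0.03, and 43 exceeded 1 in either direction. The median standard error was 1.43, and the common dispersion was 1.75, which corresponds to fish within a treatment varying by 132.3% of their mean. The spread itself was alike in both treatments, with a median SD of 1.72 in kisspeptin-treated and 1.80 in control males, and the SD was larger with kisspeptin for 50 of the 107 names.

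**Figure D2:**
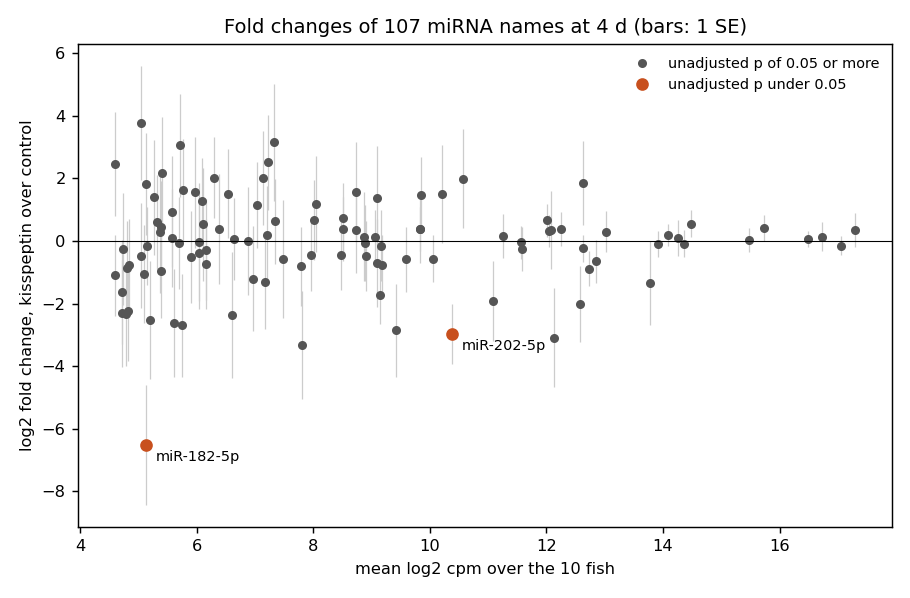
Log2 fold change, kisspeptin over control (y axis, bars of 1 standard error), against the mean log2 cpm over the 10 fish (x axis) for the 107 miRNA names tested. The 2 names with an unadjusted p under 0.05, miR-202-5p and miR-182-5p, lie below 0, and errors widen towards low levels.

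The smallest p belonged to miR-202-5p, from a hairpin known in vertebrates for its expression in testis and ovary. It had 40, 17, 19, 69 and 101 counts in kisspeptin-treated males, against 62, 276, 83, 1917 and 247 in controls. In log2 cpm, 4 of the 5 kisspeptin-treated males lay below every control, and A4-10 lay above A3-6 but below the other 4 controls. This order rests on the scaling factors, that of A3-6 being 0.72, and A4-17 lay only just below A3-6. By counts over library totals without scaling, A4-17 also lay above A3-6, and A4-10 above A3-2. The means were 9.01 ± 1.33 log2 cpm with kisspeptin and 11.76 ± 1.52 in controls, and the difference of −2.75 had a two-sided exact permutation p of 0.0159. The same test gave 0.159 for miR-1a-3p and 0.31 for miR-199a-3p, and the Benjamini-Hochberg adjusted p of miR-202-5p among them was 0.0476. For the single test miR-202-5p was chosen with its low p already known, so these exact p values are not independent support. The edgeR estimate was −2.98 in log2 with a standard error of 0.95, −2.06 without A3-9, the control with the most counts, and −3.38 without A4-10, with adjusted p values from 0.193 to 0.961 over all alternatives. At 2 d the log2 fold change in males was −0.79, and the difference between the days was −2.17 (edgeR adjusted p = 0.824).

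Both arms and nearly all forms of this hairpin had the same sign. This is no independent support, since controls alone were enough to carry the opposite arm and some of the forms past the filter. The most abundant isomiR of miR-202-5p, with 56.9% of its counts, had 22, 0, 2, 45 and 64 counts with kisspeptin, against between 45 and 1102 in controls. The form with 1 more base at the 5′ end was counted in all 10 fish, with 11, 17, 7, 9 and 3 counts in kisspeptin-treated males and 14, 35, 5, 268 and 30 in controls. All 6 tested isomiRs of miR-202-5p had log2 fold changes below 0, with a median of −3.44, and 4 of them were among the 15 isomiRs with an unadjusted p under 0.05. These forms share their fish and are not replicates. Among those 4, the form 1 base shorter at the 3′ end had 1 count in A4-17 alone with kisspeptin, against 1, 16, 4, 105 and 0 in controls. The form 1 base longer at the 3′ end than the most abundant was counted in 4 controls and 2 kisspeptin-treated males. Controls alone were enough to carry both past the filter, so their p values support nothing. The opposite arm, miR-202-3p, was counted in A4-17 alone among kisspeptin-treated males (11 counts), against 0, 7, 9, 41 and 13 counts in controls. Over the pooled counts this is 26.2 cpm with kisspeptin and 173 cpm in controls. The log2 fold change was −2.62 (standard error 1.72, edgeR adjusted p = 0.942). Without A4-17 it was −6.77 (edgeR adjusted p = 0.545, the lowest of its alternatives, which reached 0.990). All kisspeptin-treated males left were then at 0, so the value depends on the prior count. With or without A4-17, controls alone were enough to carry miR-202-3p past the filter. Its sign and its p values therefore support nothing. No other name of the gonad list passed the filter.

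Next in order came miR-182-5p, a miRNA of sensory epithelia in vertebrates, which was listed at 0 in all 5 kisspeptin-treated males and had 1, 25, 25, 0 and 5 counts in controls. With 3 counts over the kisspeptin group as the limit of a 0, its pooled level was at least 19.4-fold lower with kisspeptin (at least 13.0-fold without A4-3). This bound and the pooled bounds that follow take in counting error of the 0 alone, not the spread between fish. The fitted log2 fold change of −6.52 (standard error 1.91, edgeR adjusted p = 0.499) depends on the prior count. Being at 0 with kisspeptin, miR-182-5p passed the filter of 4 fish through the controls alone, so its small p follows from that selection and supports nothing. Names counted in at least 4 controls and at most 1 kisspeptin-treated male were miR-182-5p and miR-202-3p, 1.36% of the 147 names counted, and no name (0%) had the opposite pattern. A single name of the 107 tested, 0.935%, lay lower in every kisspeptin-treated male than in every control, and none (0%) lay higher. This was miR-130b-5p, with 76, 21, 2, 9 and 44 counts with kisspeptin and 80, 78, 77, 150 and 63 counts in controls. Its levels were 7.95 ± 1.88 log2 cpm with kisspeptin and 10.33 ± 0.45 in controls (log2 fold change −1.73, standard error 0.94, edgeR adjusted p = 0.942). The controls were close to each other and A4-9 was far below the rest, and without A4-9 the log2 fold change was −1.35. Its most abundant isomiR, with 89.5% of the counts, was listed at 0 in A4-8, A4-9 and A4-10. That form was counted in every control, and its part in the difference was not tested.

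The other names with the 10 smallest p values had an edgeR adjusted p of 0.942 each and rested on few fish. The hepatocyte miRNA miR-122-5p had 20, 587, 1281, 358 and 48 counts with kisspeptin, against 9686, 65, 1652, 32 and 1278 in controls. Both treatments spanned high and low fish, and the log2 fold change of −3.09 (standard error 1.59) was −0.95 without A3-2. Counts of miR-204 were 83, 0, 36, 0 and 22 with kisspeptin and 675 in A3-5, less in A3-2 and 10, 2 and 8 in the other controls, so that A3-5 and A3-2 set the fold change of −3.33 (standard error 1.73). In miR-25-3p, of a cluster related to miR-17, kisspeptin-treated males had at most 160 counts, against 1083 in A3-9 and 447 in A3-11 among controls, and A4-10 and A3-5 had 0. Higher with kisspeptin were miR-4286, with 0, 14, 23, 3 and 0 counts against 0, 0, 3, 0 and 0 in controls, and miR-19d, with 21, 27, 20, 0 and 3 counts against 0, 0, 6, 6 and 0. The log2 fold changes were 3.77 (standard error 1.83) for miR-4286 and 3.05 (1.64) for miR-19d. For miR-16a, 1200 counts in A4-9 stood against at most 24 in the other kisspeptin-treated males and at most 38 in controls, and the log2 fold change of 3.15 was −0.24 without A4-9. Of those 1200 counts, 1124 belonged to 1 sequence that was listed with 1124 counts under miR-16b in the same fish. The remaining name, miR-1a-3p, is taken up with the muscle miRNAs.

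**Figure D3:**
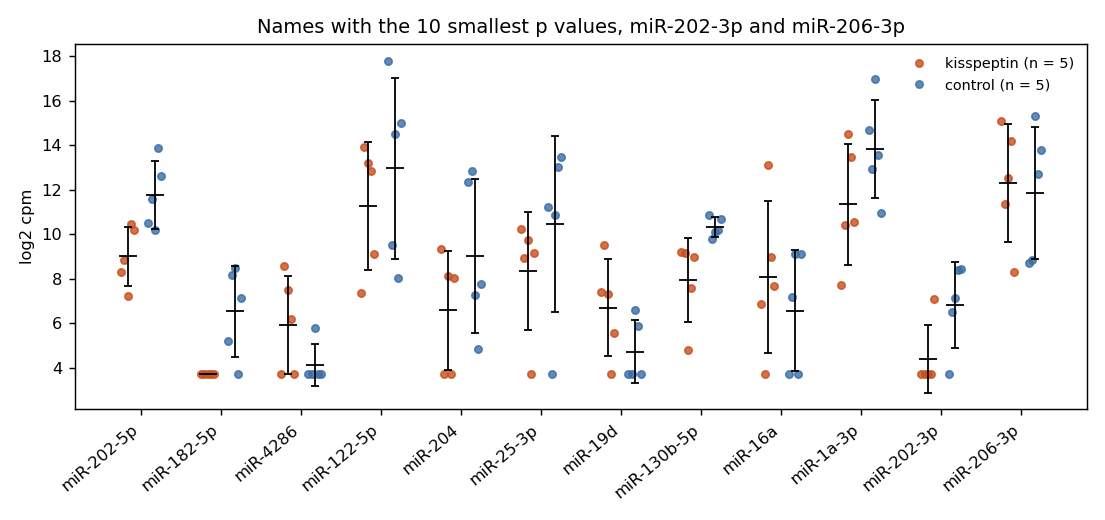
Level in log2 cpm (y axis) by fish of the names with the 10 smallest p values, then miR-202-3p and miR-206-3p (x axis), in 5 kisspeptin-treated (left of each pair) and 5 control males, with mean and SD. A fish with 0 counts sits at 3.72, where all 5 kisspeptin-treated males lie for miR-182-5p, and miR-130b-5p is the name whose groups do not overlap.

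Muscle miRNAs were not on one side as a group. The list is miR-1, miR-133 and miR-206, known as markers of skeletal and heart muscle, with miR-208 and miR-499. The deposited counts run in alphabetical order from miR-122-3p to miR-459. Both miR-499 and the name miR-1-3p lie outside that range, so the summed share leaves them out. Of its 4 names tested, 2 had fold changes above 0 and 2 below, none was called, and their summed share was a median of 3.11% of counts with kisspeptin and 2.04% in controls. By fish the share was 3.44%, 0.398%, 4.06%, 3.11% and 0.247% with kisspeptin, against 2.39%, 1.09%, 12.4%, 1.85% and 2.04% in controls, so the highest fish was the control A3-6 and the lowest A4-17. Counts of miR-1a-3p were 26, 52, 3174, 568 and 131 with kisspeptin and 1119, 702, 9240, 1564 and 78 in controls. Counts of miR-206-3p were 4652, 99, 805, 915 and 27 with kisspeptin and 17, 41, 2905, 855 and 541 in controls. The fish high in one were not always high in the other: A4-3 had the most miR-206-3p and the fewest miR-1a-3p counts of the 10, and A3-2 had 1119 of miR-1a-3p beside 17 of miR-206-3p. The log2 fold change of miR-1a-3p was −2.01 (standard error 1.21, edgeR adjusted p = 0.942), with −0.69 without A3-6 and −3.24 without A4-9. The log2 fold change of miR-206-3p was 0.34 (standard error 1.25), and it was −0.80 without A4-3. For miR-1c it was −0.06 (standard error 1.21) and for miR-133a-3p, counted in 3 kisspeptin-treated males and 1 control, 0.28 (1.93), with edgeR adjusted p values of 0.982 for miR-206-3p, miR-1c and miR-133a-3p.

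Within miR-1a-3p, different fish held different forms. The form without the last base had 2863 counts in A4-9 and 536 in A4-10 with kisspeptin, and 553 in A3-5 and 1526 in A3-9 among controls, and was listed at 0 in the other 6 fish. The full-length form held the counts of A3-2 (1113) and A3-6 (9217). The form with the later start was listed for 4 of 5 kisspeptin-treated males, with 52, 209, 23 and 77 counts in A4-8, A4-9, A4-10 and A4-17, and for no control. Taken over the pooled counts, that form was at least 116-fold higher with kisspeptin against the limit of 3 counts over the controls, and at least 64.7-fold without A4-9. Its edgeR adjusted p was 0.337, with 0.00394 in DESeq2 as the lowest and 0.851 as the highest of its alternatives. It passed the filter through the kisspeptin-treated males alone, so these p values follow from that selection and support nothing. The bound takes a 0 as a low level, and in these files a form was also listed at 0 in fish with many counts of its neighbours.

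Among all 362 isomiRs tested, 0% were called by edgeR and 15 had an unadjusted p under 0.05, 6 of them higher and 9 lower with kisspeptin. With limma-voom 1 was called, with DESeq2 2 and 24 of 1356 with edgeR and no filter on low counts. In 6 of the 15, one treatment was at 0 in all fish, the kisspeptin-treated males in 1 case and the controls in 5. These 6 were all of the tested isomiRs with a treatment at 0. Each was counted in 4 fish, the minimum of the filter, and entered the test only through the treatment in which it was high, so that its p follows from the selection. The isomiRs called by limma-voom (the longer form of miR-223-3p) and by DESeq2 (that form and the later start of miR-1a-3p) are among these 6, and the calls support nothing. The longer form of miR-223-3p, a miRNA of myeloid cells, was listed at 0 in all kisspeptin-treated males and with 68, 81, 29 and 99 counts in A3-2, A3-5, A3-6 and A3-9. Pooled, it was at least 96.0-fold lower with kisspeptin (at least 64.1-fold without A4-3, edgeR adjusted p = 0.337, with alternatives between 0.00348 in DESeq2 and 0.888). The form of the same name with the later start showed the opposite, with 14, 12, 2 and 9 counts in A4-3, A4-9, A4-10 and A4-17 and 0 in every control (at least 11.9-fold higher, at least 7.94-fold without A3-9, edgeR adjusted p = 0.599). Summed over its forms, miR-223-3p had 1351, 16, 131, 2 and 111 counts with kisspeptin and 1135, 1877, 81, 638 and 93 in controls (log2 fold change −1.93, standard error 1.28, edgeR adjusted p = 0.942). One isomiR of miR-155, a leukocyte miRNA, was also counted in 4 kisspeptin-treated males (8, 3, 8 and 5 counts) and in no control. It held 2.68% of the miR-155 counts, and the name as a whole had a log2 fold change of −0.15 (standard error 1.13).

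The share of the most abundant isomiR within a name was compared for the 10 highest names, and none passed the threshold between treatments (two-sided exact permutation tests, adjusted p from 0.905 to 0.913). In miR-22a the most abundant form held 78.2% ± 2.65 of the counts with kisspeptin and 77.2% ± 3.23 in controls, in miR-126a-3p 86.1% ± 5.04 and 88.4% ± 3.61, and in miR-15a 59.9% ± 3.35 and 57.2% ± 1.30. In miR-21 the share was 63.8% ± 35.9 with kisspeptin and 64.8% ± 36.3 in controls, and the full-length form was listed at 0 in A4-9 and A3-11. Those are the fish whose miR-21 level was low. Likewise the main form of miR-451 was at 0 in A4-9 and A3-2, and that of miR-125a in A3-9 and A3-11. Both arms of a hairpin were counted in all 10 fish for miR-144 alone, and the log2 ratio of its 5p to its 3p arm was 5.35 ± 0.74 with kisspeptin and 5.02 ± 1.71 in controls (difference 0.32, two-sided exact permutation test, p = 0.683).

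Main forms listed at 0 were common among the abundant names. Of 51 names with at least 500 counts over the 10 libraries, the most abundant isomiR was counted in all 10 fish for 15 and was at 0 in at least 1 fish for 36. The median SD of log2 cpm over the 10 fish was 0.56 for the 15 names and 2.52 for the 36. This contrast is not independent of the split, since a main form at 0 lowers the sum of its name. A name with its main form at 0 could still hold counts of other forms: in A3-9 the main form of miR-125a was at 0 beside 710 counts of another form. How the zeros arose was not tested. In miR-26a the main form, with 90.7% of the counts, had 14752 counts in A4-9 and 10885, 8642 and 16051 in A3-5, A3-6 and A3-9, and was at 0 in the other 6 fish. Its close relative miR-26b was counted in every fish. Levels of miR-26a were 13.66 ± 1.80 with kisspeptin and 13.88 ± 4.26 in controls, against 13.83 ± 0.41 and 14.01 ± 0.42 for miR-26b. The same was seen in miR-143-3p, whose main form was counted in A4-3, A4-8, A4-9, A3-9 and A3-11 and at 0 in the others, and in miR-23a-3p, miR-25-3p, miR-122-5p, miR-204 and miR-206-3p. Also, 34 sequences were counted under more than 1 name in these fish, and in all 14 cases where 1 fish had the same sequence under several names the counts were equal. The part of these gaps in the fold changes was not tested apart from 2 alternatives. With names summed over isomiRs counted in all 10 fish only, which hold 44.3% of the counts, 0 of 19 names were called and 1 had an unadjusted p under 0.05 (edgeR). With names summed by miRNA number, 0 of 73 were called and 4 had an unadjusted p under 0.05 (edgeR). That is close to the share expected without any effect. These were miR-202, miR-182, miR-29 and miR-25, all lower with kisspeptin. At 0 in all kisspeptin-treated males, miR-182 passed the filter through controls alone. Controls also carried miR-29 past it, with 0, 6, 6, 20 and 6 counts against 2 in A4-17 alone with kisspeptin. The p values of miR-182 and miR-29 therefore support nothing. For miR-25, the main form of miR-25-3p was listed in A3-9 and A3-11 alone, and its part in that p was not tested.

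**Figure D4:**
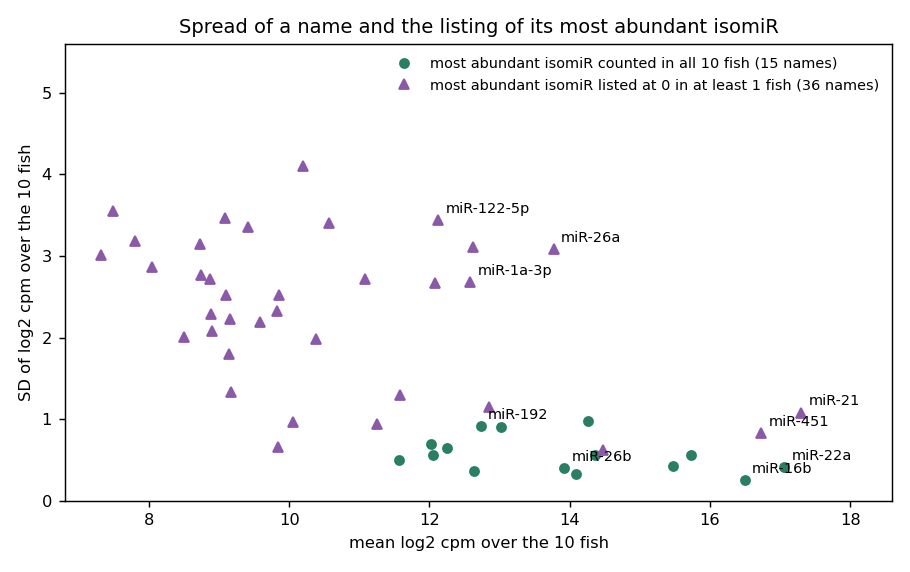
SD of log2 cpm over the 10 fish (y axis) against the mean level (x axis) for the 51 names with at least 500 counts, as circles where the most abundant isomiR was counted in all 10 fish (15 names) and as triangles where it was listed at 0 in at least 1 fish (36 names). Circles lie under an SD of 1, with a median of 0.56, and triangles have a median of 2.52, a contrast that is not independent of the split.

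Families and marker lists are described by counts and medians beside the 54 names above 0 and 53 below 0 over all names, and no member of any list was called. The names of the miR-23, miR-24 and miR-27 cluster were mostly higher with kisspeptin, 6 of 7, with a median log2 fold change of 0.72. Together they held 4.31%, 3.01%, 4.38%, 2.43% and 1.87% of the counts in kisspeptin-treated males, against 0.459%, 1.76%, 2.73%, 1.46% and 1.05% in controls. Only A3-6 among controls reached into the range of the kisspeptin-treated males. The main form of miR-23a-3p, with 93.2% of its counts, was counted in A4-3, A4-8, A4-9 and A3-6 alone. Those were the fish with the highest shares, and the part of this form in the sum was not tested. Summed by number, miR-27 had a log2 fold change of 0.30 (standard error 0.45) and miR-23 1.61 (1.43), with edgeR adjusted p values of 0.957 and 0.879. The evenly listed members miR-27c (12.41 ± 0.53 log2 cpm with kisspeptin and 12.08 ± 0.78 in controls) and miR-27e (12.35 ± 0.34 and 11.69 ± 0.84) differed less than miR-23a-3p, which had 3726, 684, 2796, 6 and 8 counts with kisspeptin and 7, 31, 1486, 74 and 21 in controls.

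All 3 names of the miR-125 family were above 0. The family held 3.47%, 3.10%, 3.62%, 5.03% and 4.88% of counts with kisspeptin and 2.36%, 3.63%, 2.38%, 1.28% and 1.97% in controls, so that A3-5 alone overlapped. One sequence was listed as miR-125b-5p in some fish and as miR-125c in others, a split that the sum removes. The log2 fold change of the sum was 0.65 (standard error 0.39, edgeR adjusted p = 0.652 over 73 numbers). The main form of miR-125a was listed at 0 in A3-9 and A3-11, the controls with the lowest shares, and its part in the sum was not tested. Of 22 tested isomiRs of miR-125a, 10 were above 0 and 12 below, with a median of −0.31. All 5 tested names of the miR-30 family were below 0 (3 of 5 with limma-voom), with a median of −0.65. Their tested isomiRs did not share this direction. In miR-30e-5p 4 were above and 4 below 0, in miR-30d 1 and 1, in miR-30a-3p 2 and 0 and in miR-30c 1 and 0. Its highest name, miR-30d, had 12.48 ± 1.26 with kisspeptin and 13.22 ± 1.00 in controls, and the family sum a log2 fold change of −0.68 (standard error 0.43, edgeR adjusted p = 0.652). These families were singled out with their values known, and shares of a library are not independent of each other.

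**Figure D5:**
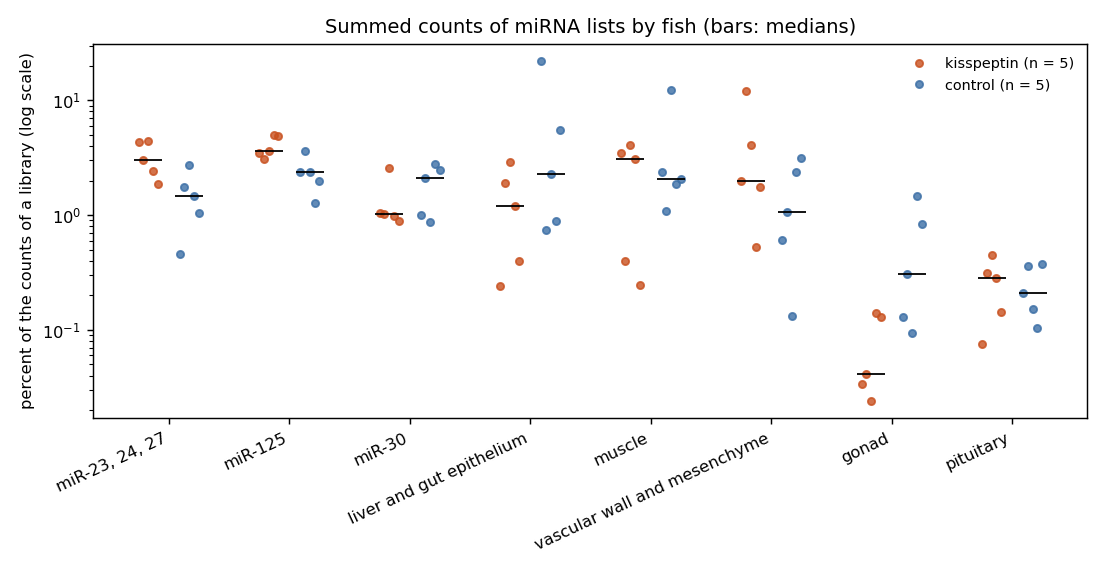
Percent of a library's counts (y axis, log scale) held by 8 lists of miRNAs (x axis), 1 point per fish, with kisspeptin-treated males left of controls in each pair and a bar at the median. The miR-23, 24, 27 and miR-125 sums lie higher and the gonad sum lower with kisspeptin, with overlap in each, and the liver and muscle sums span both groups.

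The list for liver and gut epithelium was also on one side, with 5 of 5 names below 0 and a median of −0.89, but with 3 of 5 below 0 without A4-3 or without A4-8 and 3 of 4 tested without A3-2 or without A3-11. Apart from miR-122-5p this holds miR-192, a miRNA of gut, liver and kidney, with 311, 197, 1649, 232 and 263 counts with kisspeptin and 752, 621, 603, 1135 and 426 in controls. In log2 cpm that is 12.17 ± 0.91 with kisspeptin and 13.29 ± 0.52 in controls, where A4-9 alone of the kisspeptin-treated males lay within the range of the controls (log2 fold change −0.89, standard error 0.55, edgeR adjusted p = 0.942). The rarer miR-194a, miR-215 and miR-122-3p had fold changes from −0.96 to −0.24. Vascular and mesenchymal miRNAs had 4 names above and 2 below 0. Counts of miR-143-3p, a smooth muscle miRNA, were 2465, 4715 and 3789 in A4-3, A4-8 and A4-9 and as low as 173 in the other kisspeptin-treated males, against 239, 120, 3, 2866 and 818 in controls (log2 fold change 1.84, standard error 1.34), and miR-199a-3p had 39, 163, 159, 6 and 1147 against 0, 471, 32, 0 and 80. The direction of miR-143-3p and miR-199a-3p was opposite to that of miR-214-3p, which had −0.57.

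Blood cell lists were balanced. Erythrocyte names had 3 above and 3 below 0 and a summed share of 24.4% ± 6.42 with kisspeptin and 23.3% ± 8.29 in controls, and leukocyte names 4 above and 2 below, with 8.06% ± 2.76 and 7.27% ± 2.00. Endothelial miR-126 held 4.70% ± 1.04 with kisspeptin and 4.73% ± 1.75 in controls. Of the 6 tested names of the pituitary list, miR-375 and 5 of the miR-200 family, 3 were above and 3 below 0. That list holds 8 names and takes in the numbers miR-132 and miR-212, for which no name was counted in these fish. Its members were scarce: miR-375, an endocrine miRNA, had 7, 130, 332, 8 and 25 counts with kisspeptin and 73, 247, 119, 0 and 6 in controls. For miR-200a-3p, miR-200b-3p, miR-200c, miR-141 and miR-429-3p, counts in a fish were between 0 and 66, with log2 fold changes from −0.81 for miR-200b-3p to 1.63 for miR-429-3p. A single nervous tissue name, miR-128, passed the filter and was carried by 385 counts in A3-5. In the list of miR-17, miR-18, miR-19, miR-20 and miR-25, 1 of 5 tested names was above 0. In the miR-181 family it was 1 of 3, in the miR-15 and miR-16 family 3 of 5, in the miR-26 family 0 of 2 and in the miR-22 names 2 of 3, and no name of the miR-29 family passed the filter.

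A pair of names was noticed outside these lists, after the values had been seen. The epithelial miRNA miR-31 was counted in all kisspeptin-treated males (170, 13, 50, 37 and 16 counts), against 29 and 20 counts in A3-5 and A3-6 and 0 in the other 3 controls (log2 fold change 2.51, standard error 1.53, edgeR adjusted p = 0.942). The reverse was seen in miR-184-3p, an epithelial miRNA of the eye, with 0, 0, 0, 45 and 2 counts in kisspeptin-treated males, against 12, 69, 33, 32 and 17 in controls. Its log2 fold change of −1.20 (standard error 1.67) rested on A4-10, without which it was −5.84 (edgeR adjusted p = 0.369, the lowest of its alternatives, which reached 0.998). The only kisspeptin counts left were then the 2 of A4-17. The name then passed the filter through controls alone, and this p supports nothing.

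Seen over all names together, treatment accounted for 11.0% of the variation between the 10 libraries (pseudo-F 0.99, one-sided exact permutation test, p = 0.50). The nearest library was of the same treatment for 5 of the 10 fish. With names summed by number, the share was 14.1% (exact permutation p = 0.0397), which alone of the 4 settings run on all fish passed the threshold, and p then ran from 0.0238 to 0.230 with each fish left out, highest without A4-9.

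Finally, the 4 d effect was set against that at 2 d in males, where other fish from other tanks were used (6 kisspeptin-treated and 4 control males). Over the 107 names in both fits the fold changes of the days had a Spearman rho of 0.03 as a description across names, which are not independent, and 54 names (50.5%) had the same sign. The difference between the days was tested over more names than those 107, all that passed the filter in the males of both days. With edgeR 0% of these names were called and 12 had an unadjusted p under 0.05. Over the same names DESeq2 called 2, miR-1a-3p and miR-199a-5p. The smallest p was that of miR-1a-3p, with log2 fold changes of −2.01 at 4 d and 5.12 at 2 d, a difference of −7.16 (standard error 1.91, edgeR adjusted p = 0.141, 0.0305 without A4-9, with alternatives between 0.00184 in DESeq2 and 0.311). After it, the smallest p values were those of miR-29b, miR-223-5p, miR-199a-5p and miR-182-5p, with edgeR adjusted p values of 0.143, 0.176, 0.176 and 0.176. Of these, miR-199a-5p had 10, 0, 271, 11 and 67 counts with kisspeptin and 0, 15, 5, 8 and 19 in controls at 4 d, and its log2 fold change was 2.02 at 4 d and −3.61 at 2 d, a difference of 5.76 (standard error 1.93). For miR-182-5p the fold changes were −6.52 at 4 d and 0.70 at 2 d. At 4 d, miR-29b and miR-223-5p, like miR-182-5p, were at 0 in every kisspeptin-treated male. Controls had 6, 6 and 20 counts of miR-29b in 3 fish and 1 and 36 counts of miR-223-5p in 2. With the kisspeptin group at 0, the size of these 3 differences depends on the prior count, and their p values are no support. Over the alternatives other than fish left out, the difference ran from −11.2 to −4.27 for miR-29b and −11.2 to −2.88 for miR-223-5p.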

How the data were processed

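Small RNA from blood plasma was sequenced by the authors, who trimmed adapters and the 4 random bases of both read ends (cutadapt 2.8 in the methods, 2.1 in the submitters' processing notes) and mapped reads with bowtie2 (2.4.1, k = 10) to hairpins of all species in miRBase 21, keeping the species with the highest expression. HTSeq 0.6.0 is named with no role given. The deposited values are raw counts per isomiR. The table starts at miR-122-3p and ends at miR-459. Names such as let-7 are not analysed here.

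IsomiR counts were summed to names. Names or isomiRs with at least 1 cpm in at least 4 of the 10 fish were tested with edgeR 4.0.16 (quasi-likelihood, TMM, Benjamini-Hochberg, threshold 0.05, limma 3.58.1, R 4.3.3). The difference between the days was fitted over 20 males. Standard errors given with edgeR are the absolute log2 fold change divided by the square root of the F statistic of the test. They depend on the prior count where a treatment is at 0. Levels in log2 cpm used a prior count of 1 and TMM over 30 libraries. Single values were tested by exact permutation over all divisions of the fish. Fish are separate samples, but each treatment is 1 tank. The labels pair no fish. Alternatives were limma-voom, DESeq2 1.42.0, other filters and scalings, other sums and each fish left out. Names in the text are the 10 highest, the 10 smallest p, the tested muscle, gonad and pituitary names, up to 4 of other lists, those in at least 4 fish of one treatment and at most 1 of the other, those without overlap, the 5 smallest p for isomiRs and days, and miR-199a-3p. Outside this rule, miR-31 and miR-184-3p were named after their values were seen. Members, lists and tests were chosen with earlier results of these data known. The edgeR test was checked on simulated counts with a lower dispersion than in these data (1.75 for names). That check therefore does not show its power here. Python 3.11.15, numpy 2.4.6, scipy 1.17.1, pandas 2.3.3 and matplotlib 3.10.9 were used.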

Additional observations from a re-analysis of the deposited data

Results flagged for a closer look

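In 11 of 68 sets of 5 fish (34 measures in each treatment), the highest or lowest fish stood far from the others by Dixon's criterion, where about 3.4 are expected by chance, and measures that share counts are not independent. On the log2 cpm scale, miR-21 was low in the kisspeptin-treated male A4-9 (14.99, others from 17.75 to 18.17) and in the control A3-11 (15.61, others from 17.51 to 17.80). Its full-length form was listed at 0 in both. For miR-16b the low kisspeptin-treated male was A4-17 (16.13, others from 16.49 to 16.61) and the high control A3-6 (17.08, others from 16.32 to 16.42). The low control for miR-3963 was A3-5 (12.85, others from 14.62 to 14.90), and the low kisspeptin-treated male for miR-15a was A4-8 (13.80, others from 14.14 to 14.27). Levels of miR-25-3p were at the value of a 0 count, 3.72, in the kisspeptin-treated male A4-10 and in the control A3-5. The other 3 cases are a lone fish with counts where the other 4 of its treatment had 0: the kisspeptin-treated male A4-17 for miR-202-3p (7.11), and the controls A3-6 for miR-4286 (5.79) and A3-11 for miR-133a-3p (8.89).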

How the results depend on the processing

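For names, 0 were called in every alternative, with between 1 and 10 unadjusted p values under 0.05. Calls of isomiRs were 0 in the main test, 1 with limma-voom, 2 with DESeq2 and 24 with no filter, and calls for the difference between the days 0, or 2 with DESeq2 and from 0 to 1 with each fish left out (1, miR-1a-3p, without A4-9). Separation reached 14.1% with names summed by number. The log2 fold change of miR-1c was 1.54 with limma-voom and 0.0576 with no scaling factors, and that of miR-16b −0.0244 with all 30 samples in one fit. With each fish left out, log2 fold changes ran from −0.24 to 3.77 for miR-16a, −0.80 to 1.34 for miR-206-3p, −0.54 to 0.90 for miR-1c, −0.0546 to 0.69 for miR-133a-3p and −0.0699 to 0.16 for miR-16b. In the same way the difference, kisspeptin minus control, ran from −0.20 to 0.32 for the log2 total, −1.35 to 12.6 for the names counted, −3.20 to 0.45 percentage points for counts of 21 or 22 nt, −0.12 to 0.0019 nt for mean length and 4.54 to 12.1 percentage points for the 10 highest names (12.1 without A4-9, exact permutation p = 0.0238). For the percent held by the most abundant isomiR it ran from −17.2 to 14.9 in miR-21, −0.038 to 2.18 in miR-22a, −14.4 to 16.7 in miR-451, −6.85 to −1.71 in miR-16b (exact permutation p = 0.00794 without A4-8), 1.78 to 4.11 in miR-146a (0.0476 without A4-9), −2.94 to 3.04 in miR-144-5p, −3.38 to 0.76 in miR-3963 and 1.61 to 3.86 in miR-15a (0.0238 without A4-10), all unadjusted, and for the log2 arm ratio of miR-144 from −0.16 to 0.86. The causes were not tested. Of 1073 recomputed values, 39 changed direction, 18 passed the threshold or rose past 1.5 times the main count, 4 moved beyond the spread, and 1012 kept their direction and side of the threshold or stayed within the spread. No paired analysis was possible because the kisspeptin-treated and control males are different fish, and fewer than 2 of their label numbers are shared. Depth limits the rare names: in the smallest library a name under 95.7 cpm can be listed at 0, and 14 names were counted in 1 fish only.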
